A study of Homo sapiens with 4 samples.

Results

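Potassium channel genes, those whose symbol begins with KCN and ends in a family letter code and a number, were followed in 143B cells with and without depletion of CBX3. Members were found by symbol, and 87 of the 37450 features of the count table were potassium channel genes. They comprised 37 voltage-gated subunits, 14 inward rectifiers, 7 calcium-activated (or related) subunits, 14 two-pore channels and 15 accessory subunits. 143B is a human osteosarcoma line, a transformed derivative of the HOS line. On day 2 after lipid-based transfection, 2 libraries came from cells that had received a non-targeting siRNA (siNC, labelled wild type) and 2 from cells that had received siRNA against CBX3 (siCBX3, labelled CBX3 knockdown). All 4 libraries therefore shared the cell line, the transfection and the time point, and no untransfected cells entered the comparison. HP1γ, the product of CBX3, is a reader of methylated histone H3. The labels do not state separate cultures for the replicates, and the p-values therefore describe only how far these libraries spread, which may be technical.

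Potassium channels are membrane pores that let potassium cross the cell membrane and so help to set the membrane potential. Voltage-gated channels open on depolarisation, calcium-activated channels open when intracellular calcium rises, and two-pore channels carry background current. Accessory subunits form no pore of their own and change the gating or trafficking of the channels they bind. In proliferating and tumour cells, potassium channels have been linked to cell volume, calcium entry and cell cycle progression.

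The siNC libraries held 37318382 and 40336907 counts, the siCBX3 libraries 36509298 and 38717507. Reads of potassium channel genes made up 0.0408% and 0.0413% of each siNC library and 0.0361% and 0.0354% of each siCBX3 library. CBX3 itself went from 20311 and 21384 counts to 2020 and 2163, a log2 fold change of -3.19 (SE 0.08, adjusted p 2.73e-20). Vimentin (VIM), a mesenchymal marker, stood at 137 RPKM in siNC, while the osteoblast genes RUNX2 (0.541), ALPL (0.0177), SP7 (0.0139) and IBSP (0.0343) were low or nearly absent. Other mesenchymal and osteosarcoma markers in siNC were SPARC (66.5), CDH2 (18.5), CDH11 (9.54), COL1A1 (1.37), COL1A2 (0.787) and BGLAP (0.408). RPKM here means reads per kilobase of annotated exon and scaled to library size with TMM factors, the scale used below for levels. Between 73.9% and 75.1% of counts from 1 to 19 were even numbers in each library, and the sources used here do not say whether both mates of a read pair were counted.

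Potassium channel genes fell more often than they rose when CBX3 was depleted. Of the 87 members, 51 passed the filter on low counts and were tested. Among these, 24 fell and 7 rose at an adjusted p under 0.05 (edgeR quasi-likelihood test), and 20 did not pass. Over all 20999 genes tested, 48.4% were called, 24.4% as higher and 24.0% as lower, so the share of members called lower (47.1%) was above the background and the share called higher (13.7%) below it. The median log2 fold change, siCBX3 minus siNC, was -0.53 over the tested members and -0.01 over all genes tested. With a further limit of 1 on the log2 scale, 16 members fell and 4 rose, against 6.42% and 6.41% of all genes. With all counts halved, 7 members rose and 23 fell of 46 tested. No test compared the members with other genes, and the members that passed the filter are not all members. Some called members passed the filter only through the group where they are high. These were KCNJ15 (8 and 8 counts in siNC) and KCNE3 (8 and 4 in siNC), through siCBX3. KCNS1 (4 and 4 counts in siCBX3) and KCNK2 (4 and 0 in siCBX3) passed through siNC. That these genes were tested, and so could be counted as called, depended on the contrast itself.

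The share of calls depends on how deeply a gene is read, and the members were mostly shallow. Of the tested members, 20 had a mean count under 50, 19 had 50 to 200 and 12 had 200 or more. Calls in either direction took 45.0%, 68.4% and 75.0% of them, against 23.6%, 42.4% and 61.1% of all genes in the same bands. In these bands 7, 10 and 7 members fell, or 35.0%, 52.6% and 58.3%. The same bands held 13.9%, 21.7% and 29.1% lower calls over all genes. Members called higher numbered 2, 3 and 2, or 10.0%, 15.8% and 16.7%, against 9.73%, 20.7% and 32.0%. In bulk RNA a fall can mean fewer cells that express a gene or less RNA per cell, and the data cannot separate these.

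**Figure D1:**
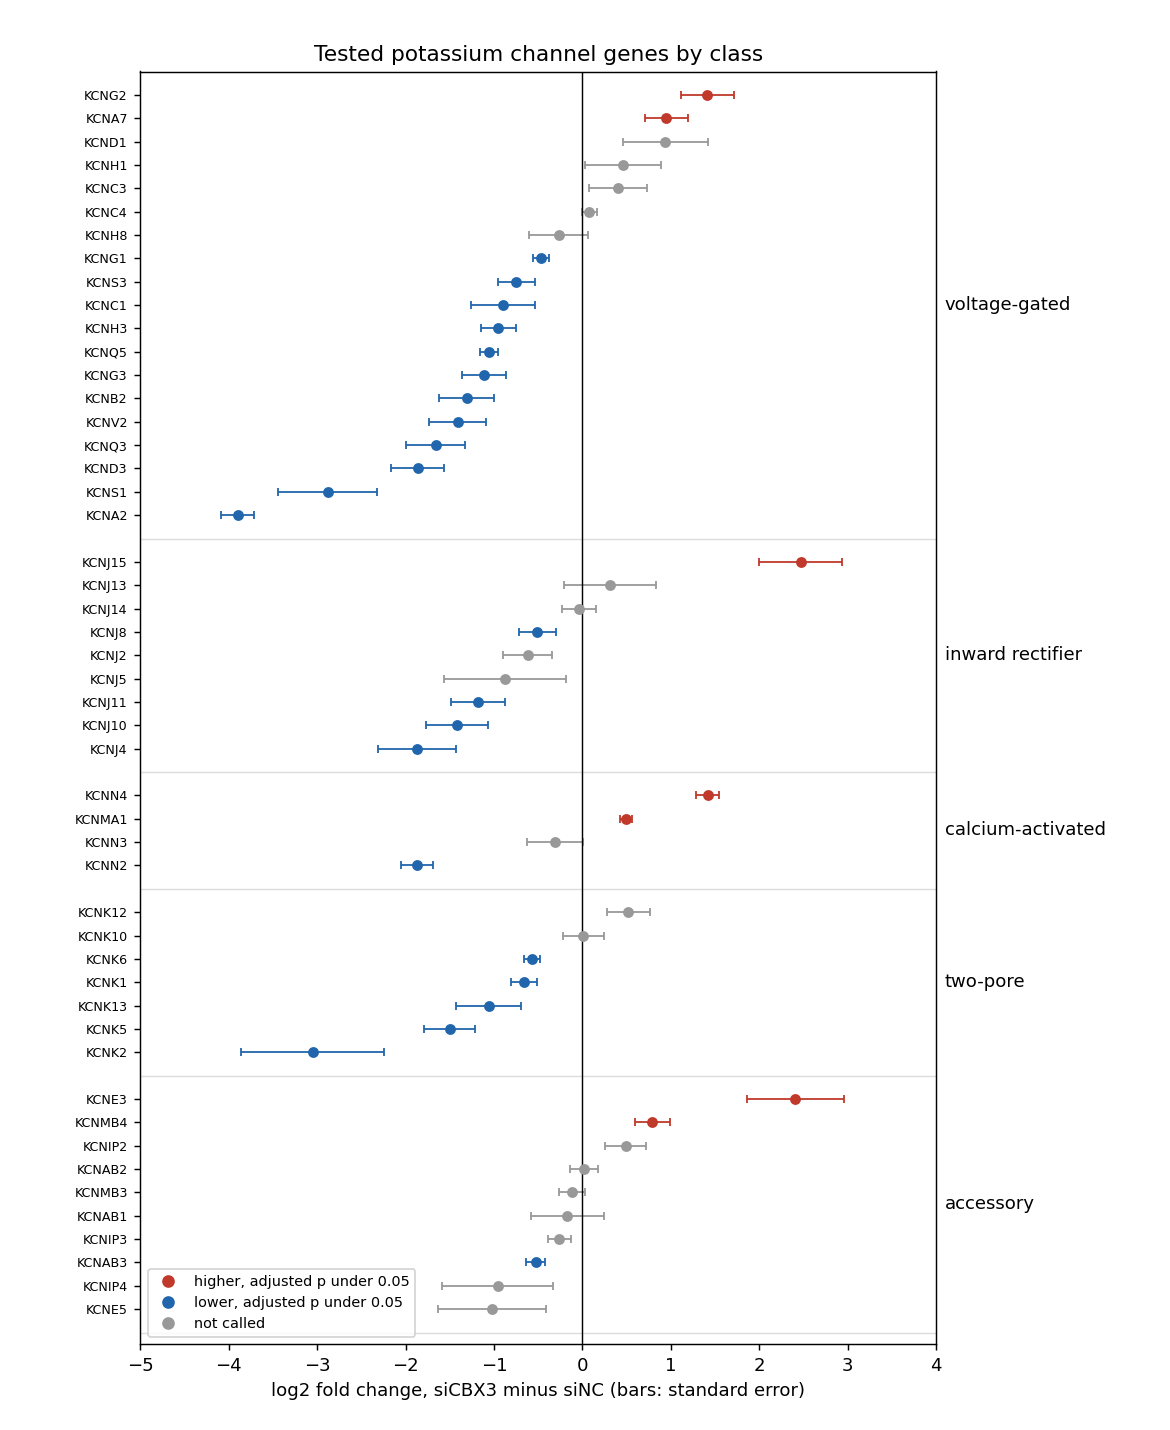
Log2 fold change (siCBX3 minus siNC, x axis, bars are standard errors from the edgeR fit) of 49 tested potassium channel genes, grouped by class, red for members called higher, blue for lower and grey for the rest. The voltage-gated class runs from 1.41 (KCNG2) down to -3.90 (KCNA2), and the two-pore class holds no gene called higher.

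The promoters of 4 members with large changes are shown because they differ in CpG content while 3 of them fell. Upstream sequence of 250 bases was available from RefSeq (GRCh38.p14) for 65 of the 87 members, and the letters below stop at the first base that the count table places in an exon. CpG dinucleotides are in capitals, and each run reads 5′ to 3′ on the gene's strand. KCNA2 is from chr1:110631475-110631690 (minus strand, 216 bases) and KCNK2 from chr1:215005292-215005541 (plus strand, 250 bases). KCNK5 is from chr6:39229476-39229725 (minus strand, 250 bases) and KCNE3 from chr11:74467730-74467799 (minus strand, 70 bases).
KCNA2: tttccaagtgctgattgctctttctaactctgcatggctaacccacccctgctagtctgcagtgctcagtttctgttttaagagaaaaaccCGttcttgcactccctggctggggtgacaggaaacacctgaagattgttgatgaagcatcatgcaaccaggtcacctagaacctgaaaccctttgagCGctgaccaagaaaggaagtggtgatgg
KCNK2: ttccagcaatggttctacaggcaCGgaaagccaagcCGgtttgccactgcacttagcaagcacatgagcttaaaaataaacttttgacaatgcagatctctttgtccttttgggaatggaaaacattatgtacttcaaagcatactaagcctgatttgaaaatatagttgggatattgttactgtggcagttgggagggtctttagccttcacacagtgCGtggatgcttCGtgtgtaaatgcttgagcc
KCNK5: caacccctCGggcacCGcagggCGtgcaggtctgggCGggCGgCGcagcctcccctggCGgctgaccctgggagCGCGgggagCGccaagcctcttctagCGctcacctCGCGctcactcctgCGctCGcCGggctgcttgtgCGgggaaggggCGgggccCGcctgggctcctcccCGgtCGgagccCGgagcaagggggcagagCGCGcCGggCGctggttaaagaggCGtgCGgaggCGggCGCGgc
KCNE3: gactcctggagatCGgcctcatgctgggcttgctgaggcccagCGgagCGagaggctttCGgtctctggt

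The printed KCNA2 and KCNK2 sequences hold 2 and 4 CpGs, that of KCNK5 holds 31 and the short KCNE3 stretch 4. Over the whole 250-base window, KCNE3 had 17 CpGs. The 16 members called lower that had a promoter sequence ranged from 2 to 44 CpGs, with a median of 17.5, and the 6 called higher from 5 to 46, with a median of 21.5. Members tested but not called had a median of 19 and untested members 10.5, against 20 for the promoters of all tested genes and 11 for all promoters in the table. Both strands of each window were searched for GGGCGG, the core of the SP1 motif, which occurred in 6 of 6 members called higher and in 9 of 16 called lower. The RefSeq start lay 115474 bases from the 5′ end of the counted gene for KCNJ15 and 65730 for KCNG2, both called higher. For KCNJ4, called lower, the distance was 11171 bases. Such windows may not be the promoters of the transcripts counted. The motif was in 64.9% of the promoters of tested genes and in 42.3% of all promoters. TGANTCA (AP-1) was found in 1 and 1 of these members and GGAATG (TEAD) in 0 and 3, against 4.31% and 9.46% of the promoters of tested genes. A match is a string of letters in the window and was not tested as a binding site.

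Voltage-gated subunits, the class with the most tested members, held most of the falls. Of 37 members 21 were tested, of which 13 fell and 2 rose, with a median log2 fold change of -0.90. Calls took 71.4% of these 21 and also 71.4% of the tested two-pore members, against 48.4% of all genes tested. For each class the background is 24.4% higher and 24.0% lower calls over all genes tested. The summed level of the class went from 23.7 and 23.7 RPKM in the siNC libraries to 16.8 and 15 in the siCBX3 libraries. The largest parts of that sum were KCNG1 (mean 9.06 RPKM in siNC and 6.55 in siCBX3) and KCNQ5 (4.84 and 2.32).

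KCNA2 (chromosome 1, 110593580 to 110631474, minus strand, GRCh38), a Kv1 delayed rectifier of neurons whose promoter stands above, had the largest fall of the tested members. Each siNC library held many reads (560 and 514) and each siCBX3 library few (34 and 32), or 1.10 ± 0.152 RPKM (SD, n = 2) against 0.0733 ± 0.00689. Both siCBX3 libraries lay far below both siNC libraries. This was a 14.9-fold fall (-3.90 on the log2 scale, SE 0.19, adjusted p 1.31e-14). Its neighbours KCNA10 and KCNA3, which lie 74405 and 40991 bases away, had totals of 2 and 3 counts over all libraries and were not tested. The other Kv1 gene tested, KCNA7, moved the other way. Its siNC libraries held 60 and 121 counts and its siCBX3 libraries 179 and 138 (log2 fold change 0.95, SE 0.24, adjusted p 0.00175). The groups of KCNA7 did not overlap, but the higher siNC library (121) lay close to the lower siCBX3 library (138), and the value was 0.60 without siNC replicate 1 and 1.45 without siNC replicate 2. The KCNA7 call ended with limma on log2(RPKM + 0.1) (adjusted p 0.0853) and on log2(RPKM + 1) (adjusted p 0.0745).

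Among Kv7 genes, KCNQ5 and KCNQ3 fell. Kv7 channels carry the M-current, a slow potassium current that damps excitability. KCNQ5 went from 1482 and 1430 counts to 597 and 687, a fall from 4.84 ± 0.503 to 2.32 ± 0.111 RPKM. Its log2 fold change of -1.06 (SE 0.10) had an adjusted p of 2.6e-09. KCNQ3 had far fewer reads, with 69 and 69 counts against 20 and 20 (-1.66, SE 0.33, adjusted p 0.00018). In both genes each siCBX3 library lay below each siNC library. KCNQ1, the channel of the slow cardiac current, had a total of 11 counts and was not tested.

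Electrically silent subunits (KCNF, KCNG, KCNS and KCNV) do not conduct alone but join Kv2 subunits and alter their gating. Of 9 such genes 6 were tested, and 5 fell while 1 rose. KCNG1 was the most abundant potassium channel gene in siNC, with 1786 and 2155 counts there and 1367 and 1229 in siCBX3. Its level went from 9.06 ± 0.488 to 6.55 ± 0.826 RPKM (log2 fold change -0.47, SE 0.09, adjusted p 0.000149). KCNS1 fell furthest, from 32 and 34 counts to 4 and 4 (-2.88, SE 0.56, adjusted p 0.000147), so its size rests on few reads. KCNV2, a subunit of photoreceptors, had 79 and 72 counts against 32 and 20 (-1.41, SE 0.32, adjusted p 0.00078). KCNG3 had 111 and 106 against 46 and 46 (-1.11, SE 0.25, adjusted p 0.000569). KCNS3 fell by 0.75 on the log2 scale (adjusted p 0.00511), a call that ended without siCBX3 replicate 1 (adjusted p 0.0612). KCNG2 alone of the 6 rose, from 27 and 46 counts to 105 and 72 (1.41, SE 0.30, adjusted p 0.000366). Within the KCNG genes, then, KCNG1 and KCNG3 were lower and KCNG2 higher in siCBX3.

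KCNB2, a Kv2 gene of the kind that silent subunits join, fell from 76 and 70 counts to 26 and 28 (-1.31, SE 0.31, adjusted p 0.00097). Among Kv4 genes, which carry transient A-type current, KCND3 fell from 82 and 106 counts to 27 and 20 (-1.86, SE 0.30, adjusted p 1.58e-05). KCND1 had 12 and 14 against 24 and 22, which did not pass (0.94, adjusted p 0.108).

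Of the fast Kv3 genes, KCNC4 was the most abundant and showed no difference past the test, with 1287 and 1418 counts before and 1293 and 1318 after depletion (0.08, SE 0.09, adjusted p 0.498). KCNC1 was called lower (-0.90, adjusted p 0.0435), but its siNC libraries had 34 and 79 counts and the siCBX3 libraries 25 and 30. Without siNC replicate 2 its value was -0.26 (adjusted p 0.699), and the call also ended without either siCBX3 library (0.1 and 0.055). It ended too with DESeq2, limma-voom and limma on log2 RPKM with either pseudocount (adjusted p 0.0835 to 0.248). In the EAG, ERG and ELK family, KCNH3 fell from 138 and 187 counts to 73 and 81 (-0.95, SE 0.20, adjusted p 0.000448). KCNH1, the EAG1 channel often studied in tumours, had 22 and 18 against 21 and 30 and did not pass (adjusted p 0.401). KCNH2, the hERG channel of heart muscle, had 10 counts over all libraries and was not tested.

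**Figure D2:**
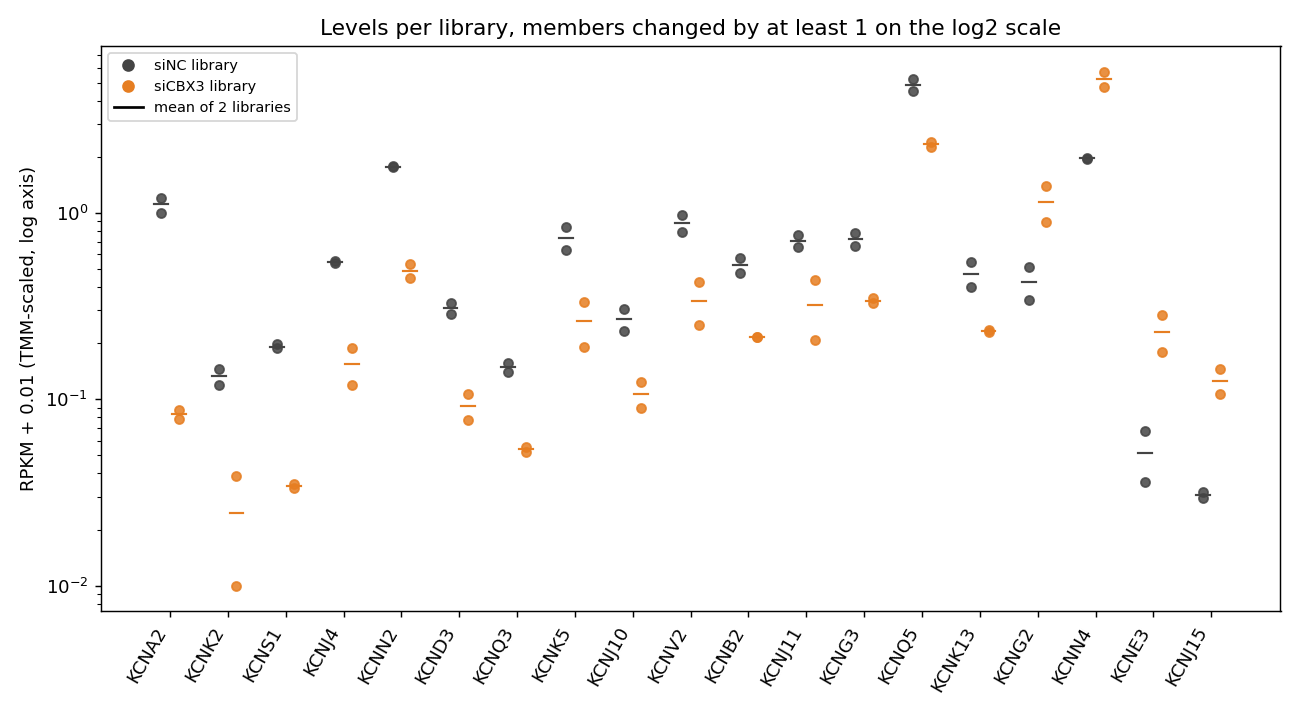
Level (RPKM + 0.01, log axis) in each library of 19 members called with a log2 fold change of at least 1 in size, siNC in grey and siCBX3 in orange, with lines at the mean of 2 libraries. For each of these genes both siCBX3 libraries lie on 1 side of both siNC libraries, and KCNK2 is at 0 in 1 siCBX3 library. Such separation held for 73.9% of all genes tested, and the genes drawn were chosen by their calls and size of change.

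Among calcium-activated channels 1 subtype rose while a relative fell. Of 7 members 4 were tested, and 2 rose and 1 fell (75.0% called, against 48.4% of all genes tested). The summed level of the class was 9.42 and 9.02 RPKM in siNC and 13.7 and 12.8 in siCBX3. KCNN4 (chromosome 19, 43766533 to 43781257, minus strand), the intermediate-conductance channel also called IK, held 244 and 269 counts in the control libraries and 663 and 589 in the depleted ones. It rose from 1.96 ± 0.0194 to 5.22 ± 0.703 RPKM, 2.67-fold (log2 fold change 1.42, SE 0.13, adjusted p 1.44e-09). KCNN2 (chromosome 5, 114360945 to 114496500, plus strand), a small-conductance SK channel, went the opposite way, from 258 and 285 counts to 60 and 76. Its level fell from 1.76 ± 0.015 to 0.480 ± 0.0555 RPKM, 3.66-fold (-1.87, SE 0.18, adjusted p 6.91e-09). In siNC these genes stood close together, with a KCNN4 to KCNN2 ratio in RPKM of 1.11 in each library. In siCBX3 the ratio was 13.0 and 9.1. KCNN3, a further SK gene, had 68 and 42 counts against 42 and 40 and did not pass (adjusted p 0.456).

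KCNMA1 (chromosome 10, 76869601 to 77638595, minus strand), the pore of the large-conductance BK channel, had the most reads of any member. It held 4047 and 4270 counts without and 5150 and 5574 with the depletion, or 5.30 ± 0.217 and 7.44 ± 0.0349 RPKM. The rise was 1.40-fold (0.49, SE 0.07, adjusted p 6.27e-06). Its accessory subunit KCNMB4, which slows BK gating, rose with it, from 121 and 98 counts to 188 and 159 (0.79, SE 0.20, adjusted p 0.0021). The KCNMB4 call ended with limma on log2(RPKM + 0.1) (adjusted p 0.0618) and on log2(RPKM + 1) (adjusted p 0.0508). KCNMB3, another BK subunit, had 253 and 258 against 222 and 208 and did not pass (adjusted p 0.527), though 37.9% of its exon bases also lie in PIK3CA on the opposite strand. KCNT1 and KCNT2, sodium-activated relatives, had 16 and 36 counts over all libraries and were not tested.

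Two-pore channel genes fell in 5 of 7 tested members, of 14 in all. In the main edgeR fit, DESeq2 and limma-voom 0 were called higher (1, KCNK12, at an unadjusted p under 0.05). KCNK12 was called higher by edgeR without the filter (adjusted p 0.0454) and with the replicate block (adjusted p 0.0312). The summed level of the class was 8.87 and 9.66 RPKM in siNC and 5.94 and 6.26 in siCBX3. KCNK6 (TWIK2), the most abundant of the class, had 1164 and 1443 counts against 740 and 865, or 5.28 ± 0.385 and 3.55 ± 0.21 RPKM (-0.57, SE 0.09, adjusted p 1.92e-05). Its relative KCNK1 (TWIK1) had 258 and 287 against 160 and 156 (-0.66, SE 0.15, adjusted p 0.000978). KCNK5 (TASK2), an acid-sensitive channel with a CpG-rich promoter printed above, had 117 and 98 against 24 and 46 (-1.5, SE 0.29, adjusted p 0.000116).

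KCNK2 (TREK1), a channel gated by stretch and lipids, dropped from 20 and 18 counts to 4 and 0. Its fitted log2 fold change of -3.05 (SE 0.81, adjusted p 0.00293) rests on very few reads. Without siCBX3 replicate 2, the library at 0, it was -2.04 and no longer called (adjusted p 0.0848), and without siCBX3 replicate 1 it was -7.24, a fitted value that depends on the prior count. KCNK13 (THIK1) had 37 and 57 counts against 20 and 21 (-1.06, SE 0.37, adjusted p 0.0213). That call ended without siNC replicate 2 (-0.8, adjusted p 0.215), siCBX3 replicate 1 (0.0569) or siCBX3 replicate 2 (0.069), and with DESeq2 (0.0981). Without siCBX3 replicate 2, then, 3 two-pore genes were called lower. KCNK10 had 78 and 131 against 96 and 95, and KCNK12 56 and 111 against 110 and 107, and neither passed (adjusted p 0.986 and 0.0824). For both genes the siNC libraries spread more than the siCBX3 libraries.

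**Figure D3:**
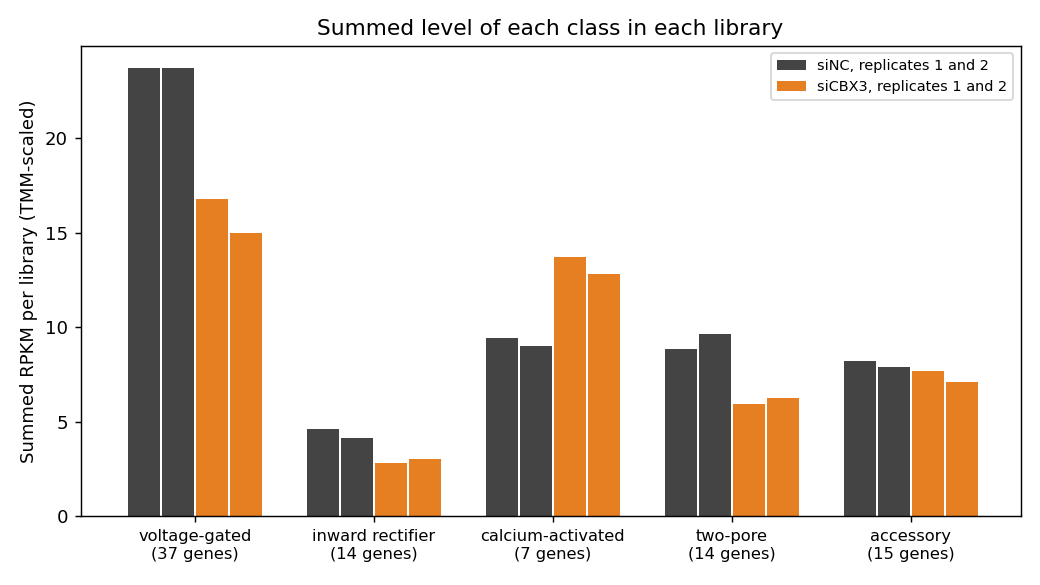
Summed RPKM of all members of each class (tested or not) in each library, siNC in grey and siCBX3 in orange. The calcium-activated class is higher in both siCBX3 libraries (13.7 and 12.8 against 9.42 and 9.02), and the voltage-gated, two-pore and inward rectifier classes are lower.

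Inward rectifiers, which pass current inward more readily than outward, fell in 4 of 9 tested members and rose in 1, of 14 in all. Calls took 55.6% of those tested, against 48.4% of all genes tested. Their summed level was 4.64 and 4.13 RPKM in siNC and 2.84 and 3.03 in siCBX3. KCNJ4 dropped from 41 and 47 counts to 8 and 14 (-1.87, SE 0.44, adjusted p 0.000975). It shares 12.6% of its exon bases with RP3-434P1.6 on the opposite strand, a transcript with 32 and 24 counts against 5 and 8, so the same reads may enter both. KCNJ10 (Kir4.1), a glial channel, had 50 and 74 against 24 and 18 (-1.42, SE 0.35, adjusted p 0.00146).

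Both pore genes of ATP-sensitive channels, which link metabolism to membrane potential, were called lower. KCNJ11 (Kir6.2) had 78 and 102 counts against 48 and 24 (-1.18, SE 0.31, adjusted p 0.00252), with the siCBX3 libraries apart from each other. Without siCBX3 replicate 2 its value was -0.72 (adjusted p 0.0615) and without siCBX3 replicate 1 it was -1.83. KCNJ8 (Kir6.1) had 152 and 124 against 86 and 92, or 1.40 ± 0.31 and 0.980 ± 0.0035 RPKM (-0.51, SE 0.21, adjusted p 0.0477). That call was near the threshold and ended without siNC replicate 1 (-0.27, adjusted p 0.425), siCBX3 replicate 1 (0.096) or siCBX3 replicate 2 (0.108). It ended too with DESeq2, limma-voom and limma on log2 RPKM with either pseudocount (adjusted p 0.0613 to 0.162). The sulfonylurea receptor genes whose products join these pores were scarce: ABCC8 had 17 and 12 counts against 10 and 8 (adjusted p 0.454), and ABCC9 had 4 and 4 against 0 and 6 and was not tested.

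KCNJ15 (Kir4.2) was the inward rectifier that rose, from 8 and 8 counts to 33 and 50 (2.47, SE 0.47, adjusted p 0.000105). Even so it stayed low, at 0.116 ± 0.0278 RPKM in siCBX3, and with limma on log2(RPKM + 1) it was not called (adjusted p 0.058). KCNJ2, the classical Kir2.1 channel, had 90 and 85 counts against 36 and 69 (-0.62, SE 0.28) and did not pass (adjusted p 0.0663), with replicate 1 of siCBX3 well below replicate 2. Its value was -0.27 without siCBX3 replicate 1 and -1.1 without siCBX3 replicate 2. In several edgeR refits with all 4 libraries KCNJ2 was called lower. These used library totals, upper-quartile scaling, no filter, a minimum mean of 50 counts or the replicate block (adjusted p 0.031 to 0.0475). KCNJ14 had 159 and 134 against 121 and 141 (-0.04, SE 0.19, adjusted p 0.873), but it shares exon bases with 3 tested genes, among them 16.5% with CTC-273B12.5, whose log2 fold change was 1.48, and 8.06% with GRWD1 (-0.55).

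Accessory subunits had calls in 30.0% of their tested members, below the 48.4% of all genes tested. Of 15 members 10 were tested, 2 rose and 1 fell, and 7 did not pass, with summed levels of 8.22 and 7.93 RPKM in siNC and 7.68 and 7.10 in siCBX3. KCNAB3, a Kv beta subunit with an aldo-keto reductase fold, made up most of the Kv beta level, with 666 and 713 counts against 423 and 452 (3.78 ± 0.116 and 2.61 ± 0.0114 RPKM). It fell by 0.53 on the log2 scale (SE 0.11, adjusted p 0.000222), and 5.5% of its exon bases also lie in RP11-1099M24.7. That transcript, on the same strand, had 324 and 354 counts against 240 and 250 (-0.34), so the same reads may enter both. Its relatives KCNAB1 and KCNAB2 did not pass (-0.17 and 0.02, adjusted p 0.769 and 0.947).

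KCNE3, a small membrane protein that holds KCNQ1 open in epithelia, rose from 8 and 4 counts to 22 and 38 (2.41, SE 0.55, adjusted p 0.00085). Its partner KCNQ1 was among the untested genes. KCNE5 had 20 and 13 counts against 4 and 11 and did not pass (-1.02, adjusted p 0.180). Leaving out 1 library moved that value from -0.52 (without siCBX3 replicate 1) to -1.85 (without siCBX3 replicate 2). The KChIP genes, calcium sensors that bind Kv4 channels, had 3 tested members. In the main edgeR fit, DESeq2 and limma-voom 0 of them were called (1, KCNIP2, at an unadjusted p under 0.05). In edgeR refits KCNIP2 was called higher with the replicate block (adjusted p 0.0411) and KCNIP3 lower with library totals (adjusted p 0.0431). KCNIP3, also known as the transcriptional repressor DREAM, had 370 and 411 counts against 321 and 275 (-0.26, SE 0.13, adjusted p 0.115), and its value ran from -0.1 without siCBX3 replicate 2 (adjusted p 0.668) to -0.43 without siCBX3 replicate 1 (adjusted p 0.0339). KCNIP2 had 64 and 114 against 116 and 111 (0.49, adjusted p 0.0831), and its value was 0.2 without siNC replicate 1 (adjusted p 0.568) and 0.87 without siNC replicate 2 (adjusted p 0.00604). KCNK12 had 0.17 without siNC replicate 1 (adjusted p 0.633) and 1 without siNC replicate 2 (adjusted p 0.00227).

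These changes reordered the most abundant members. In siNC the highest per-length levels were those of KCNG1 (9.06 ± 0.488 RPKM), KCNMA1 (5.30 ± 0.217), KCNK6 (5.28 ± 0.385), KCNQ5 (4.84 ± 0.503) and KCNAB3 (3.78 ± 0.116). The libraries of KCNMA1 (5.45 and 5.15), KCNK6 (5.01 and 5.55) and KCNQ5 (5.2 and 4.48) overlapped in RPKM, while both KCNG1 libraries lay above them and both KCNAB3 libraries below. In siCBX3 the order was KCNMA1 (7.44 ± 0.0349), KCNG1 (6.55 ± 0.826), KCNN4 (5.22 ± 0.703), KCNK6 (3.55 ± 0.21), KCNAB3 (2.61 ± 0.0114) and KCNQ5 (2.32 ± 0.111). KCNN4 thus moved from rank 6 to rank 3, KCNN2 from 8 to 20 and KCNA2 from 13 to 47 of the 87. Members with a mean over 1 RPKM numbered 13 in siNC and 10 in siCBX3. Per-length levels use all annotated exon bases, 19696 for KCNMA1 and 25042 for KCNC4, so genes with long annotated models can appear lower than their main transcript would.

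**Figure D4:**
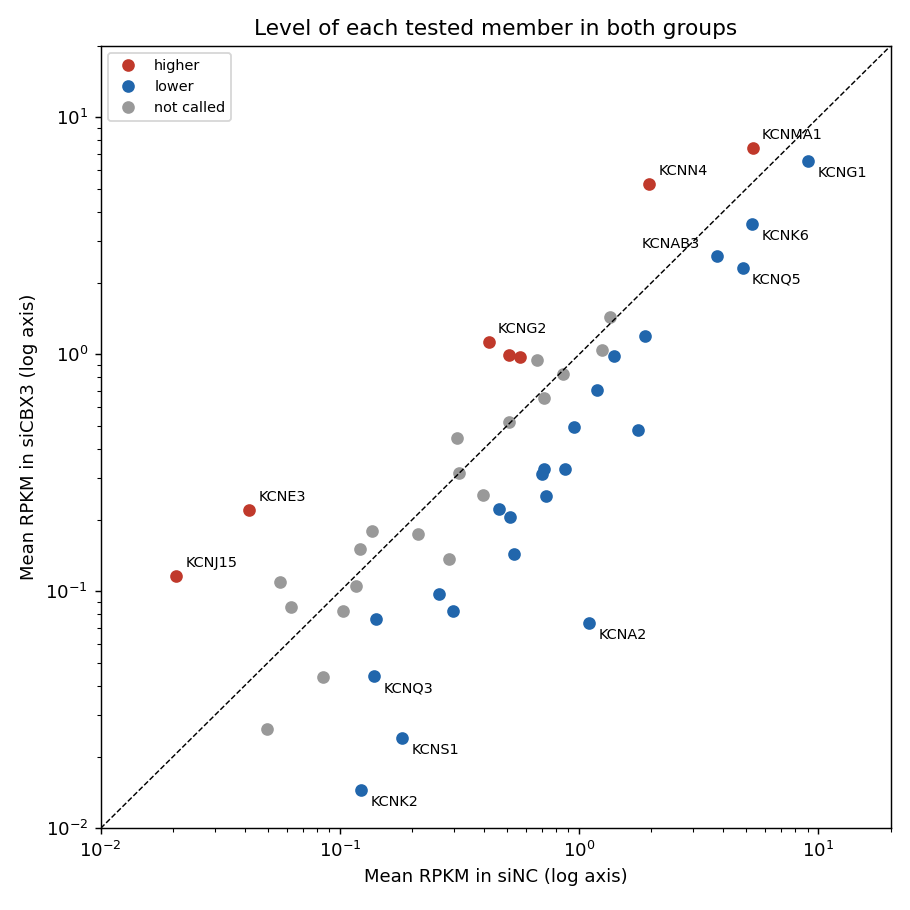
Mean level of 49 tested members in siNC (x axis) and siCBX3 (y axis), both in RPKM on log axes, coloured by call, with a dashed line of equal levels. KCNA2 stands furthest below the line (1.10 against 0.0733 RPKM), and KCNN4 and KCNMA1 are the abundant members above it.

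The 36 untested members had few or no counts in these cells. They comprised 16 voltage-gated, 5 inward rectifier, 3 calcium-activated, 7 two-pore and 5 accessory genes. The highest total was 36 counts over 4 libraries (KCNT2), 19 members had fewer than 10 counts in all, and 1 (KCNA4) had 0. Their mean levels were at most 0.058 RPKM. The filter on low counts left them out of the test. Of the exon bases of KCNA6 100% lie in GALNT8 on the same strand, and of those of KCNK4 61.9% lie in KCNK4-TEX40. How shared reads were counted is not given, so few counts of such members need not mean silence.

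Overlap with other genes touched a minority of the members. Of the 51 tested members 14 share exon bases with another tested gene, including 7 of those called, and the strand setting of the counting was not given in the sources used here. Their counts can hold reads of the partner, or lack reads of their own if shared reads were left out. The shared part of KCNMA1 (1.96% with its antisense transcript), KCNN2 (1.99%), KCNH3 (0.328%) and KCNG1 (7.98%) was small, and that of KCNJ8 was 10.8%. Among members that share no base with a tested gene, 6 rose and 18 fell.

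Genes that work beside these channels were read from lists drawn up with the channel classes. Of 11 tested partners not named KCN, 3 rose and 4 fell (median log2 fold change -0.39). HCN genes encode the hyperpolarisation-activated pacemaker channels. HCN2 rose from 56 and 45 counts to 133 and 175 (1.72, adjusted p 1.1e-06) and HCN3 from 50 and 55 to 114 and 114 (1.24, adjusted p 9.49e-05). HCN4 fell (-1.28, adjusted p 0.0129). TMEM38A, a potassium channel of the endoplasmic reticulum membrane, fell by 1.88 on the log2 scale (adjusted p 5.85e-06).

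Of 21 tested potassium pumps, cotransporters and their kinases, 2 rose and 10 fell (median -0.20). The sodium-potassium-chloride cotransporter SLC12A2 fell from 1473 and 1357 counts to 678 and 764 (-0.85, adjusted p 1.35e-07). The neuronal cotransporter SLC12A5 rose by 0.98 and the kinase STK39 by 0.41 on the log2 scale. Genes listed under calcium entry and store channels rose in 10 of 26 tested members and fell in 7 (median 0.14). Many of them, though not all, can supply the calcium that opens KCNN and KCNMA1 channels. The store channel ITPR1 fell (-1.54) while ITPR2 (0.78), TRPM4 (1.09) and TRPV1 (1.39) rose. That list had 4 falls in place of 7 without siNC replicate 1, and 4 with DESeq2. Sodium channels rose in 1 and fell in 4 of 9 tested members (median -0.49), with SCN4B at -2.39 and NALCN at -1.46, and the rise of SCN11A (6 and 0 counts against 14 and 12) was lost with DESeq2, without siNC replicate 2 and without either siCBX3 library. In all these lists a background of 24.4% higher and 24.0% lower calls applies.

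Markers of cell types in which many potassium channels are best known were measured too, beside those of the line itself. Of 8 tested mesenchymal and osteosarcoma markers (of 11) 5 rose and 1 fell, with summed levels of 232 and 236 RPKM in siNC and 686 and 668 in siCBX3. Most of that sum was SPARC (mean 66.5 RPKM in siNC and 359 in siCBX3) and VIM (137 and 275), and the gene that fell was CDH11. Of 5 tested neuronal markers (of 8) 4 rose, with summed levels of 13.8 and 12.9 RPKM in siNC and 19.9 and 18.3 in siCBX3, and ELAVL4 was at 0 in every library. TUBB3 (mean 10.0 RPKM in siNC and 12.9 in siCBX3) made up most of the neuronal sum. Cardiac and skeletal muscle markers fell in 2 of 3 tested (of 9), from a sum of 13.0 and 14.4 to 8.34 and 8.99, nearly all of it MYH3. Epithelial markers (1 of 3 tested fell, of 6) summed to 7.61 and 7.60 against 5.59 and 6.17. Of 4 tested leukocyte and 4 tested endothelial markers (of 6 each) 0 were called by edgeR, DESeq2 or limma-voom (0 at an unadjusted p under 0.05), with sums of 0.949 to 1.49 and 0.266 to 0.47 RPKM over the libraries. The background of 24.4% higher and 24.0% lower calls applies to the marker lists too. The part of these markers in the changes of the channel genes was not tested.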

How the data were processed

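Messenger RNA of 143B cells was sequenced from 2 siNC and 2 siCBX3 libraries. The authors deposited raw read counts per gene and RPKM values, with 1 library per column per the file headers. The kit was stranded, per the labels' protocols. Trimmomatic 0.36, STAR 2.5.3a, featureCounts, Subread 1.5.1 and the build GRCh38 are named in the submitters' processing notes. What was done with strand, shared reads and molecular identifiers is not given in the sources used here. Deposited RPKM values equal counts scaled by exon length and library total (relative difference at most 3.8e-07). Exon length (other unit, in bases) and coordinates were as deposited.

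Counts were tested with edgeR 4.0.16 in R 4.3.3 over the 20999 genes kept by filterByExpr (minimum count 10, minimum total 15). TMM factors, group as the only term and Benjamini-Hochberg adjustment over all genes were used, and an adjusted p under 0.05 was a call. Each SE was derived from the fold change and its F statistic. RPKM in the text was recomputed from counts with TMM-scaled totals. Alternatives used DESeq2 1.42.0, limma 3.58.1 on log2 values, and the deposited RPKM. Counts halved, since low counts were mostly even, were an alternative chosen after seeing the data. The edgeR step was tested on simulated data. Precision covers counting error and the spread of 2 libraries, and reads are not independent molecules. Python 3.11.15 made tables and plots.

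Members and lists were chosen with earlier results of these data known. Full values were given for members called with a log2 fold change of at least 1 in size, the 2 most abundant tested members of each class, and up to 2 further called members of a class with the smallest adjusted p. Other tested members could be named with shorter values, as could untested ones, and up to 4 genes of each other list. HCN4, KCNA6, KCNK4 and some marker genes were named after their values were seen. Some genes counted in the classes and lists are not reported here one by one.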

Additional observations from a re-analysis of the deposited data

How the results depend on the processing

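The 7 higher and 24 lower calls stood against 4 to 9 higher and 18 to 26 lower over the alternatives, and the higher count moved by more than 1.5 times only to 4, with limma on log2(RPKM + 1). Leaving out each library in turn gave 7 to 9 higher and 20 to 24 lower. Of the 31 called members 22 kept their call in all 15 refits that tested them, and 0 reversed. Members not called in the main fit but passing in at least 1 alternative numbered 4 (KCNJ2, KCNK12, KCNIP2 and KCNIP3). With the replicate number as a block, 9 rose and 25 fell. With 2 pairs, the labels do not say that a number marks a shared culture or day, and deviations of same-numbered libraries correlated at 0.0287 across genes. Depth limits members under 50 counts, and KCNK2 was not tested in the halved counts. Among the members described, signs reversed only in those not called. KCNC4 was -0.0042 with library totals, -0.0037 with limma on log2(RPKM + 0.1) and -0.0023 on log2(RPKM + 1). KCNK10 was -0.0037 with halved counts, -0.08 with library totals, -0.03 and -0.01 on those RPKM scales, -0.0049 with a minimum mean of 50 counts and -0.04 with upper-quartile scaling. KCNAB2 was -0.06 with library totals, -0.05 and -0.02 on the RPKM scales and -0.03 with upper-quartile scaling. Leaving out 1 library gave -0.81 to 0.11 for KCNH8, -0.24 to 0.17 for KCNJ14, -0.68 to 0.17 for KCNN3, -0.25 to 0.34 for KCNK10, -0.75 to 0.27 for KCNAB1 and -0.06 to 0.1 for KCNAB2. The cause was not tested.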

Other observations

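Replicate libraries of a group did not agree equally well for every potassium channel gene. Among the 51 tested members, 6 were at least 1.5-fold higher in RPKM in siNC replicate 2 than in siNC replicate 1, and 3 the reverse. In siCBX3 8 were at least 1.5-fold higher in replicate 2 and 6 in replicate 1, KCNK2 with 0 counts in replicate 2 among the latter. The ratio of siNC replicate 2 to replicate 1 was 2.08 for KCNC1, 1.80 for KCNA7, 1.77 for KCNK12 and 1.59 for KCNIP2. In siCBX3 the ratio was 4.65 for KCNJ5 (2 and 10 counts) and 0.465 for KCNJ11.

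Genomic neighbours among the members were mostly a tested gene beside one with few counts. Of the pairs within 200 kb of each other, KCNJ10 (166 counts in all) lies 11322 bases from KCNJ9 (6 counts), KCNK5 (285) lies 69551 bases from KCNK17 (2), and KCNJ2 (280) lies 33065 bases from KCNJ16 (6).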
